A study of Mus musculus with 25 samples.

Results

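Amyotrophic lateral sclerosis (ALS) is a disease in which motor neurons degenerate, and mouse orthologs of 30 genes linked to it were examined in spinal cord cholinergic neurons with and without the clock gene *Bmal1*. The 30 genes carry variants that cause ALS or raise its risk in people, or encode RNA-binding proteins tied to the disease. They were taken from a list by name, and all 30 of the 30 were present with at least 10 counts summed over the 24 immunoprecipitates, out of 50559 genes in the table and 21738 that passed this limit. The known genes fall into a few cell functions. RNA-binding proteins such as TDP-43 process and transport mRNAs and leave the nucleus or aggregate in diseased neurons, adaptors such as p62 and optineurin deliver ubiquitin-tagged cargo to autophagosomes, and motors and tubulins carry cargo along the long axon of the motor neuron. The molecular clock, driven by BMAL1 with its partner CLOCK at E-box sequences, sets daily rhythms of transcription in most tissues.

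Messenger RNA was isolated from *ChAT-BKO* mice, which are *ChAT-Cre;RiboTag fx/+;Bmal1 fx/fx* and lose *Bmal1* where *ChAT-Cre* is active, and from controls, which are *ChAT-Cre;RiboTag fx/+* and keep it. All mice were males at 6 mo of age, collected at Zeitgeber Time (ZT) 8 in the light period or ZT20 in the dark period, with 6 mice in each of the 4 groups. The RiboTag allele puts a hemagglutinin tag on ribosomes of Cre-expressing cells, which both genotypes carry, and immunoprecipitation of the tag enriches mRNAs bound to their ribosomes. *ChAT-Cre* is active in cholinergic neurons as a class, so that motor neurons and cholinergic interneurons are measured together, and fewer cells cannot be told apart from less RNA per cell. One further library was made from pooled input, that is, spinal cord RNA before the immunoprecipitation.

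Total counts per immunoprecipitate ranged from 4.04 to 31.7 M. Levels are given in CPM, counts per M of the library's total after TMM scaling between libraries. A gene with 0 counts could still lie at up to 3 counts, which is 0.0947 to 0.743 CPM depending on the library, a limit set by counting error alone. *Bmal1*, listed as *Arntl*, fell from a mean of 8.44 to 2.64 CPM at ZT8 and from 8.73 to 1.92 CPM at ZT20, with all *ChAT-BKO* libraries below all controls (adjusted p = 1.56e-05 and 1.98e-07 from edgeR). All 7 cholinergic markers lay above the input (median log2 ratio 2.31), whereas 0 of 6 oligodendrocyte, 0 of 6 astrocyte, 0 of 6 microglia and 0 of 5 endothelial markers did, although none of these was at 0 in every library. In the immunoprecipitates, summed oligodendrocyte markers still stood at 1660 to 2490 CPM (input 23300) and astrocyte markers at 836 to 971 CPM (input 3530). Cholinergic markers stood at 4230 to 4880 CPM (input 584), so transcripts of other cells remained in part. Summed skeletal muscle markers (12 genes) exceeded 90 CPM in 5 libraries, which were 3 of *ChAT-BKO* at ZT20, 1 of *ChAT-BKO* at ZT8 and 1 of controls at ZT8, and lay at 52.9 CPM or less in the other 19. Libraries also differed in how steeply log2 CPM rose with log2 transcript length, with slopes from 0.659 to 0.85. Both extremes were controls at ZT8, where the steepest library had 512 CPM of the short *Sod1* and 1389 CPM of the long *Kif5a*, and the shallowest had 864 and 982 CPM. Over the 24 libraries, log2 CPM correlated with the slope at r = -0.977 for *Sod1* and 0.948 for *Kif5a*. Members did not all sort by length, with r = 0.954 for *Atxn2* (1.977 kb) and -0.775 for *Vapb* (7.029 kb).

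The ALS-linked transcripts spanned more than 3 orders of magnitude in abundance. Levels between genes are compared as CPM per kb of transcript, averaged over the 24 libraries, because longer transcripts give more reads. Length was the plain mean over a gene's coding transcripts in GENCODE M21, whichever of them the neurons use. It was 1.216 kb over 7 transcripts for *Tuba4a* and 0.641 kb from 1 for *Sod1*. The order of genes at close levels depends on these lengths. Of the 30 members, 25 had a mean of at least 10 CPM. Their median coefficient of variation between mice of a group was 7.16%, against 9.15% for all 8739 genes with a mean of at least 10 CPM. These genes were not matched to the members in abundance, so the lower value is not a trait of the members. Of the 30, 18 had group means within 1.1 times of each other, and the highest and lowest group means were furthest apart for *Ewsr1* at 1.26 times and *Ang* at 3.59 times.

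**Figure D1:**
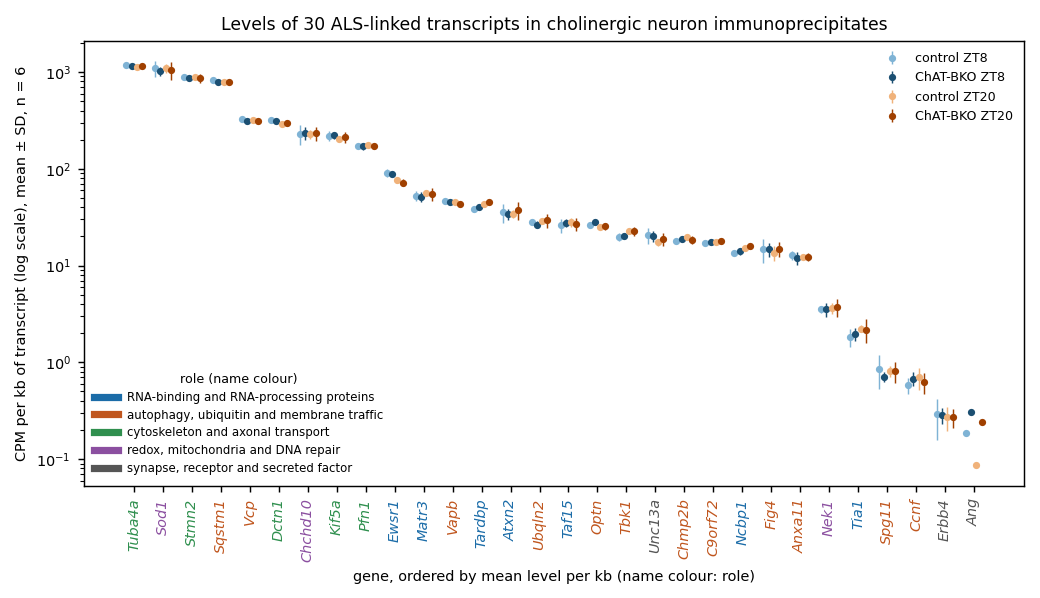
Mean level of each of the 30 transcripts in the 4 groups, in CPM per kb of transcript on a log scale, with the SD over 6 libraries except for *Ang*, whose few counts made the SD about as large as the mean. Levels ran from 1157 CPM per kb for *Tuba4a* to 0.205 for *Ang*, and the 4 groups lay close together at nearly every gene.

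Genes of the cytoskeleton and axonal transport were the most abundant group. *Tuba4a*, an alpha-tubulin, had the highest level per kb at its mean annotated length, 1157 CPM per kb, with 1323 to 1528 CPM over the 24 libraries. *Stmn2*, a stathmin that regulates microtubules and serves axon repair, was at 876 CPM per kb and 1616 to 2111 CPM. *Dctn1*, the large dynactin subunit that links dynein to cargo, was at 305 CPM per kb and 861 to 1113 CPM. *Kif5a*, a kinesin heavy chain for transport away from the cell body, was at 215 CPM per kb and 929 to 1389 CPM. *Pfn1*, the actin-binding profilin 1, was lowest of the 5 at 173 CPM per kb and 113 to 140 CPM, and all 5 of these genes were among the 9 most abundant members. *Sod1*, the cytosolic superoxide dismutase and the first gene tied to familial ALS, was second of all 30 at 1067 CPM per kb and 488 to 872 CPM. Its spread overlapped that of *Tuba4a* above it once both were put per kb. *Chchd10*, a protein of the mitochondrial intermembrane space, was at 232 CPM per kb and 199 to 373 CPM. *Nek1*, a kinase of cilia and DNA repair, was far lower at 3.61 CPM per kb and 13.9 to 23.2 CPM.

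Autophagy and ubiquitin genes covered almost the whole range. *Sqstm1*, which encodes p62, and *Vcp*, an ATPase that pulls ubiquitinated proteins from complexes and membranes, were at 799 and 318 CPM per kb, with 1287 to 1505 and 988 to 1135 CPM. They were the steadiest members together with *Tuba4a*, with coefficients of variation within groups of 3.03%, 3.84% and 3.71%. *Vapb*, an endoplasmic reticulum tether, was at 45.1 CPM per kb and 286 to 343 CPM. Below it, *Ubqln2*, a shuttle to the proteasome, was at 28.3 CPM per kb and 75.0 to 122 CPM, *Optn*, the receptor optineurin, at 26.3 and 56.7 to 76.8 CPM, and *Tbk1*, the kinase that phosphorylates optineurin and p62, at 21.3 and 29.96 to 44.2 CPM. *Chmp2b*, an ESCRT-III subunit, was at 18.6 CPM per kb and 29.1 to 38.2 CPM, *C9orf72*, whose intronic repeat is the most frequent genetic cause of ALS in people, at 17.5 and 49.6 to 60.4 CPM, and *Fig4*, a phosphoinositide phosphatase, at 14.5 and 32.7 to 67.9 CPM. *Anxa11*, an annexin that tethers RNA granules to lysosomes, was at 12.3 CPM per kb and 19.8 to 30.6 CPM. *Spg11*, which serves lysosome reformation, and *Ccnf*, a cyclin that is part of a ubiquitin ligase, were near the floor of the list at 0.798 and 0.646 CPM per kb, with 3.66 to 11.2 and 1.45 to 3.85 CPM. Counts of *Spg11*, *Tuba4a*, *Sod1*, *Vcp* and *Pfn1* were not whole in any of the 24 libraries, and those of *Atxn2* in 23, so that part of them came from reads the authors' program divided among genes. In the order of all 30 by level per kb, every adjacent pair from *Ubqln2* down to *Anxa11* overlapped in its range over libraries.

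RNA-binding members lay in the middle of the range. *Ewsr1*, a FET-family protein of transcription and splicing, led with 82.1 CPM per kb and 127 to 192 CPM, and *Matr3*, the nuclear matrix protein matrin 3, followed at 53.9 and 90.3 to 138 CPM. *Tardbp*, which encodes TDP-43, was at 41.9 CPM per kb and 85.9 to 118 CPM, *Atxn2*, a regulator of translation and stress granules, at 35.3 and 50.7 to 97.9 CPM, and *Taf15*, another FET-family protein, at 27.2 and 32.4 to 53.4 CPM. *Ncbp1*, the large subunit of the nuclear cap-binding complex, was at 14.6 CPM per kb and 36.7 to 50.9 CPM. *Tia1*, a nucleator of stress granules, was lowest of the 7 at 2.05 CPM per kb and 4.10 to 8.66 CPM. Of the remaining members, *Unc13a*, which primes synaptic vesicles, was at 19.3 CPM per kb and 62.0 to 119 CPM, and *Erbb4*, a neuregulin receptor, at 0.279 and 1.304 to 4.36 CPM. *Ang*, a secreted ribonuclease, had 48 counts in all 24 libraries together, 0 counts in 4 of them, and shares exons with *Rnase4* on the same strand, so its counts are uncertain. Other members whose exons overlap a gene on the opposite strand include *Ewsr1* with *Rhbdd3*, *Tardbp* with *Masp2* and *Ncbp1* with *Tstd2* and *Xpa*. The libraries kept strand, and whether the counting used it is not given in the sources used here.

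The immunoprecipitates were then compared with the pooled input, which holds RNA of the whole cord. The measure is the log2 ratio of CPM in each immunoprecipitate to CPM in the input, here with both from deposited totals. Since the input is a single library, the ratio was not tested. The length slope was computed for the immunoprecipitates and not for the input, so its part in the ratios was not tested either. Of the 30 members, 17 had a mean above the input, with a median log2 ratio of 0.114, compared with 36.3% of all genes tested (median -0.448) and 48.4% of the 8739 genes with a mean of at least 10 CPM. By library, 12 members were above the input in all 24 immunoprecipitates, 11 were below it in all 24, and 7 fell on both sides.

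**Figure D2:**
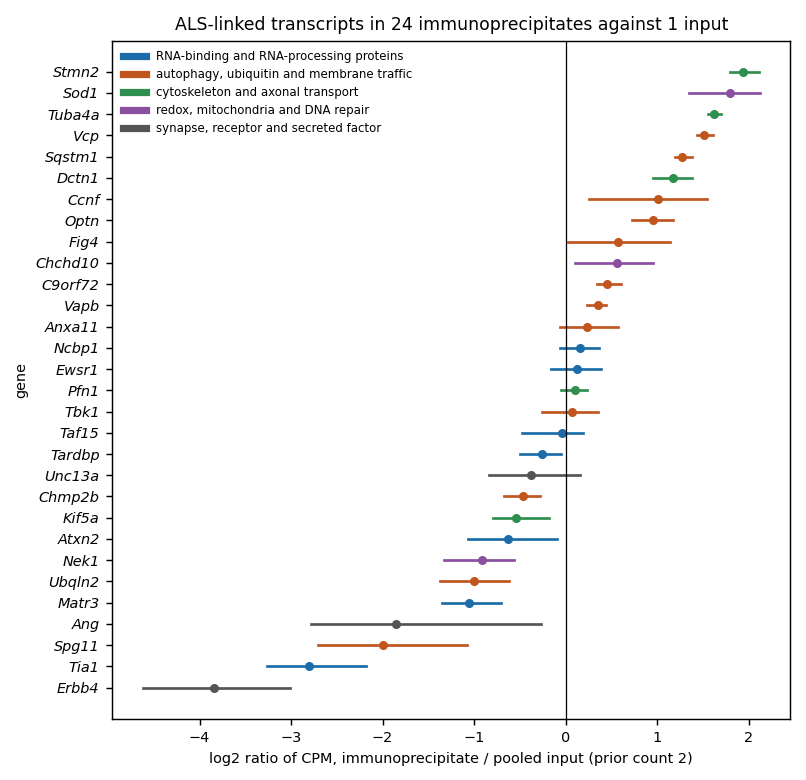
Log2 ratio of CPM in the 24 immunoprecipitates to the single pooled input, with the mean as a point and the lowest to highest library as a line, for each of the 30 transcripts. *Stmn2*, *Sod1* and *Tuba4a* were highest and *Erbb4* and *Tia1* lowest, and lines that stay on one side of 0 mark the 12 and 11 members that did so in all 24 libraries.

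The cytoskeletal *Stmn2* had the highest mean log2 ratio to the input at 1.94 ± 0.08 (SD over 24 immunoprecipitates), followed by *Sod1* at 1.79 ± 0.21 and *Tuba4a* at 1.62 ± 0.04. The autophagy genes *Vcp* at 1.51 ± 0.04 and *Sqstm1* at 1.27 ± 0.05 came next, then *Dctn1* at 1.17 ± 0.10, *Ccnf* at 1.01 ± 0.31 and *Optn* at 0.95 ± 0.11. *Ccnf* rests on 9 input counts. The ratio was smaller for *Fig4* at 0.58 ± 0.30, *Chchd10* at 0.56 ± 0.22, *C9orf72* at 0.45 ± 0.07 and *Vapb* at 0.35 ± 0.06, which completed the 12 members above the input in every library. Ratios close to 0 were found for *Anxa11* at 0.23 ± 0.15, *Ncbp1* at 0.15 ± 0.11, *Ewsr1* at 0.13 ± 0.17, *Pfn1* at 0.10 ± 0.07, *Tbk1* at 0.07 ± 0.15 and *Taf15* at -0.03 ± 0.17.

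Members below the input included abundant ones. *Kif5a* lay at -0.54 ± 0.16 although it was the fourth most abundant member in CPM, and *Tardbp* lay at -0.26 ± 0.12. *Unc13a* was at -0.38 ± 0.22, *Chmp2b* at -0.46 ± 0.10, *Atxn2* at -0.63 ± 0.26, *Nek1* at -0.91 ± 0.22, *Ubqln2* at -1.01 ± 0.16 and *Matr3* at -1.06 ± 0.19. *Atxn2*, *Kif5a*, *Unc13a* and *Matr3*, all below the input, were the members whose log2 CPM rose most with the length slope. *Fig4*, next in that order, was above it. *Sod1*, *Chchd10* and *Stmn2*, all above the input, fell most with the slope, and *Taf15*, next, was just below it. The lowest ratios belonged to *Ang* at -1.85 ± 0.70 on 7 input counts, *Spg11* at -1.99 ± 0.34, *Tia1* at -2.81 ± 0.29 and *Erbb4* at -3.84 ± 0.40. Median log2 ratios of the marker lists were -3.65 for oligodendrocytes and -3.93 for astrocytes. The part of other cells' RNA in the signal of *Erbb4* and *Tia1* was not tested. By role, 4 of 5 cytoskeletal members and 9 of 12 autophagy and membrane traffic members were above the input, as were 2 of 3 redox, mitochondrial and DNA repair members, 2 of 7 RNA-binding members and 0 of 3 synaptic, receptor and secreted members, and differences between roles were not tested. When TMM normalization over the 25 libraries replaced the deposited totals, 20 members lay above the input, with *Tardbp*, *Taf15* and *Unc13a* added, which made 4 of 7 RNA-binding members, so the side on which members near 0 fall depends on the scaling.

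The first comparison asked whether *Bmal1* deletion in cholinergic neurons changed the abundance of ALS-linked transcripts. At ZT8, 0 of 30 members were differentially expressed with edgeR at an adjusted p under 0.05, where 0.184% of all genes were, and 1 member (3.33%) had an unadjusted p under 0.05 against 4.83% of all genes. DESeq2 and limma voom also called 0. The median log2 fold change (*ChAT-BKO* over control) of the members was -0.02 against 0.000134 for all genes, with 12 members higher and 18 lower. Leaving out *Ang*, the 29 others ranged from -0.24 for *Spg11* to 0.21 for *Ccnf*, and 21 of the 30 had a 95% interval within 0.3 of 0 on either side.

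The smallest p-values at ZT8 belonged to *Optn*, *Ubqln2* and *Tardbp*. *Optn* ranged from 62.7 to 67.8 CPM (median 65.3) in controls and from 66.2 to 76.8 CPM (median 71.7) in *ChAT-BKO* libraries. Of the *ChAT-BKO* libraries, 4 lay above all controls and the groups overlapped. The log2 fold change of *Optn* was 0.13 (SE 0.06, 95% interval 0.01 to 0.25, adjusted p = 0.995 from edgeR). *Ubqln2* differed by -0.10 (interval -0.24 to 0.04, adjusted p = 1 from edgeR) and *Tardbp* by 0.08 (interval -0.03 to 0.20, adjusted p = 1 from edgeR), each with overlapping groups.

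At ZT20, 0 of 30 members were differentially expressed with edgeR, where 0.230% of all genes were, again with 1 member (3.33%) under an unadjusted p of 0.05 against 6.28% of all genes, and 0 called by DESeq2 or limma voom. The median log2 fold change was 0.01 against -0.01 for all genes, and 19 members were higher and 11 lower. The 29 members without *Ang* ranged from -0.18 for *Ccnf* to 0.14 for *Atxn2*, and 23 of 30 intervals lay within 0.3 of 0. *Vapb* ranged from 305 to 339 CPM (median 322) in controls and from 286 to 319 CPM (median 301) in *ChAT-BKO* libraries. Of the latter, 4 lay below all controls. Its log2 fold change was -0.10 (SE 0.05, 95% interval -0.19 to -0.01, adjusted p = 0.773 from edgeR). *Ewsr1* differed by -0.09 (interval -0.21 to 0.03, adjusted p = 0.850 from edgeR). *Ang* followed with a fitted value of 1.02 (interval -0.56 to 2.61, adjusted p = 0.872 from edgeR), from 0 to 4 counts per library and 8 counts over all controls against 10 over all *ChAT-BKO* libraries, too few to measure a fold. Muscle markers moved with this comparison, since 3 of the 12 were called higher in *ChAT-BKO* libraries at ZT20 and their sum ranged from 6.07 to 105 CPM there and from 9.69 to 31.0 CPM in controls, and their part in the members' values was not tested. Without the 5 libraries over 90 CPM, the count of members called stayed at 0 in both comparisons.

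**Figure D3:**
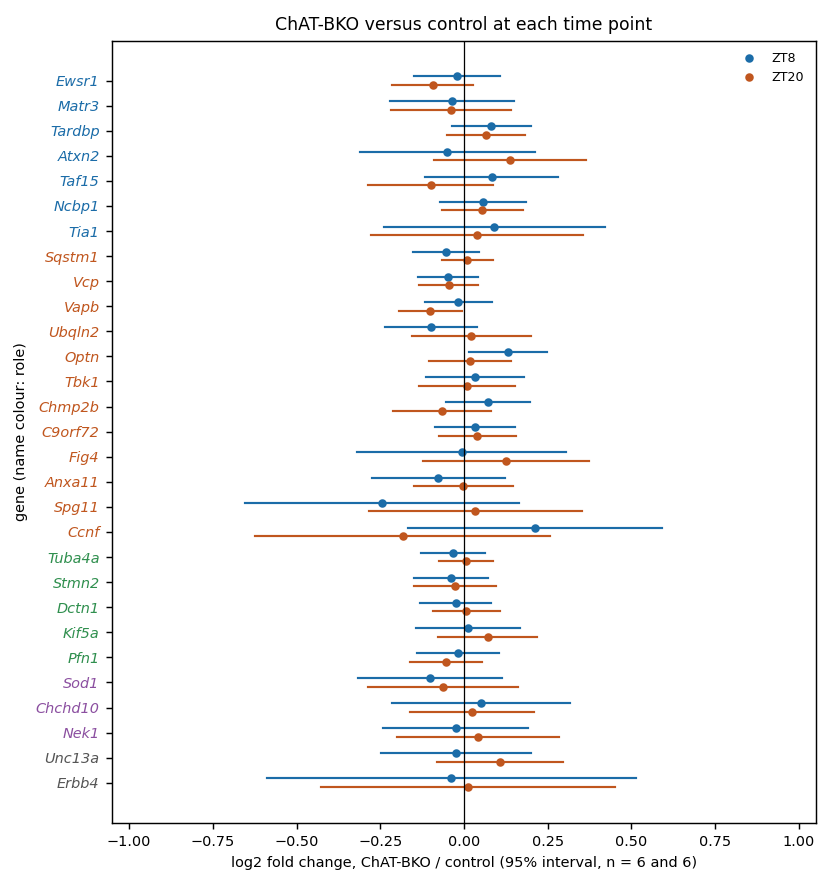
Log2 fold change of *ChAT-BKO* over control with its 95% interval at ZT8 and at ZT20 (n = 6 and 6 each) for 29 transcripts, grouped by role, with *Ang* left out because its interval reached from -0.56 to 2.61 at ZT20. No transcript was called, and the intervals were narrowest for abundant genes such as *Vcp*, *Sqstm1* and *Tuba4a* and widest for *Erbb4*, *Spg11* and *Ccnf*.

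By role, the 5 cytoskeletal members ranged from -0.04 to 0.01 at ZT8 and, at ZT20, from -0.05 to 0.07, and no bound of their intervals exceeded 0.219 in size. The RNA-binding members spanned -0.05 to 0.09 at ZT8, and at ZT20 they spanned -0.10 to 0.14. The narrowest intervals were 0.0898 to either side for *Vcp* at ZT8 and 0.075 for *Sqstm1* at ZT20. With both time points in a single fit on 24 libraries, 0 of 30 members were called with edgeR, DESeq2 or limma voom, where edgeR called 0.741% of all genes, and 0 had an unadjusted p under 0.05 with edgeR against 7.04% of all genes. The smallest p-values were those of *Optn* at 0.08 (95% interval -0.002 to 0.153, adjusted p = 0.734 from edgeR), *Tardbp* at 0.07 (interval -0.002 to 0.152, adjusted p = 0.734) and *Vapb* at -0.06 (interval -0.121 to 0.0046, adjusted p = 0.766). In this fit 26 of 30 intervals lay within 0.3 of 0, the exceptions being *Ccnf*, *Spg11*, *Erbb4* and *Ang*. When each library's length slope entered the fit, *Chchd10* was called higher in *ChAT-BKO* neurons, by 0.11 on the log2 scale (edgeR, adjusted p = 0.0279) in place of 0.04, as its SE fell from 0.09 to 0.03, while the share of all genes called rose from 0.741% to 1.92%.

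A test of whether the effect of *Bmal1* deletion differed between ZT20 and ZT8 called 0 of 30 members with edgeR, DESeq2 or limma voom, and edgeR called 0% of all genes. With edgeR, 0 members had an unadjusted p under 0.05 against 3.9% of all genes. The smallest p-values were those of *Chmp2b* with a difference of -0.13 (interval -0.30 to 0.05), *Sqstm1* with 0.08 (interval -0.03 to 0.18) and *Ccnf* with -0.38 (interval -0.95 to 0.19), all at an adjusted p of 1.00 from edgeR.

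The next comparison asked which ALS-linked transcripts differed between the light and the dark period. *Ewsr1* was lower at ZT20 by about the same amount in both genotypes, and *Tardbp*, *Ncbp1* and *Tbk1* were slightly higher. In controls, 0 of 30 members were differentially expressed between ZT20 and ZT8 with edgeR, where 0.115% of all genes were, while 7 members had an unadjusted p under 0.05, or 23.3% of the members against 8.25% of all genes. DESeq2 called 1 member, *Ewsr1*, and limma voom 0. In *ChAT-BKO* neurons, edgeR called 1 member, *Ewsr1*, lower at ZT20, where 0.285% of all genes were called, and 5 members had an unadjusted p under 0.05, or 16.7% against 9.42%. With both genotypes in a single fit, 4 of 30 members were called, where 2.69% of all genes were, and 8 members (26.7%) had an unadjusted p under 0.05 against 14.1% of all genes. Genes of low count are rarely called, and most members are abundant. Under filterByExpr, which drops more genes of low count, the same 4 of 29 members were called, where 5.27% of 14389 genes were. *Tardbp*, *Ncbp1* and *Tbk1* were higher at ZT20 and *Ewsr1* was lower, and 3 of these 4 encode RNA-binding or RNA-processing proteins. The median log2 fold change (ZT20 over ZT8) of the members was 0.01 against 0.000709 for all genes, with 16 higher and 14 lower.

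**Figure D4:**
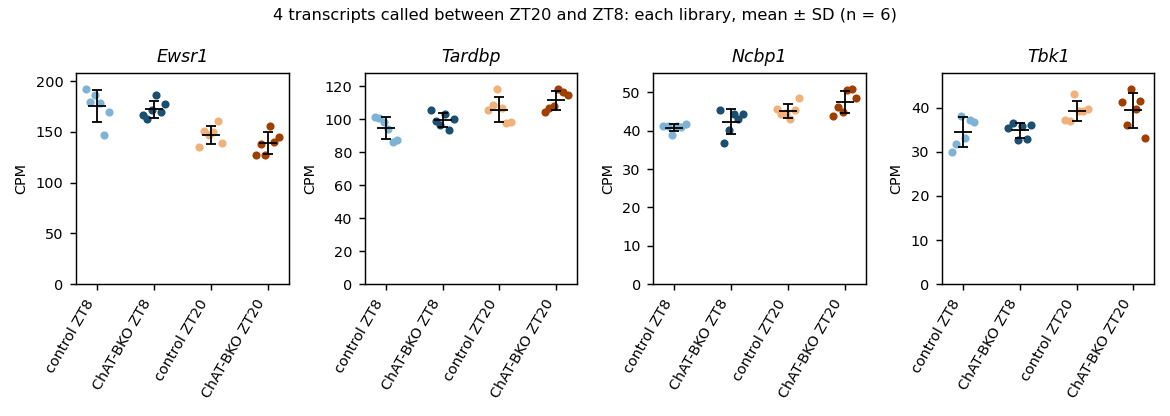
CPM of *Ewsr1*, *Tardbp*, *Ncbp1* and *Tbk1* in each of the 24 libraries (points), with the mean and SD of each group of 6 (black), on axes that start at 0. *Ewsr1* was lower at ZT20 than at ZT8 in both genotypes and the other 3 were higher, with points of both time points overlapping in most panels.

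*Ewsr1* showed the largest of these differences. In controls it ranged from 147 to 192 CPM (median 178) at ZT8 and from 135 to 161 CPM (median 149) at ZT20. Only 2 of the ZT20 libraries lay below all ZT8 libraries, because 1 control at ZT8 was at 147 CPM. In *ChAT-BKO* neurons it ranged from 163 to 186 CPM (median 171) at ZT8 and from 127 to 155 CPM (median 139) at ZT20, with all 6 ZT20 libraries below all 6 at ZT8, a separation in either direction that 1.18% of all genes showed. The log2 fold change was -0.25 in controls (SE 0.06, 95% interval -0.38 to -0.12, adjusted p = 0.183 from edgeR), -0.31 in *ChAT-BKO* neurons (SE 0.06, interval -0.44 to -0.19, adjusted p = 0.0196) and -0.28 over both genotypes (SE 0.04, interval -0.37 to -0.20, adjusted p = 0.000145). The call in one genotype and not in the other is not a difference between them, since the test of that difference gave -0.06 (interval -0.23 to 0.11, adjusted p = 1.00 from edgeR). Without control replicate 5 at ZT8, the library with the steepest length slope, *Ewsr1* was also called in controls (-0.29, adjusted p = 0.0306 from edgeR), and over all alternatives, fits without 1 library included, its adjusted p in controls ranged from 0.000282 to 0.434. In *ChAT-BKO* neurons the adjusted p rose to between 0.0506 and 0.0548 without replicate 1 or 2 at ZT20 or replicate 3 or 6 at ZT8, and to 0.234 without the 4 *ChAT-BKO* libraries over 90 CPM of muscle markers, which left 3 at ZT20. Its log2 fold change there was -0.23, and the adjusted p over the alternatives ranged from 1.57e-05 to 0.234.

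*Tardbp*, *Ncbp1* and *Tbk1* rose modestly at ZT20. *Tardbp* ranged from 85.9 to 101 CPM (median 96.0) in controls at ZT8, 97.5 to 118 CPM (median 106) in controls at ZT20, 93.5 to 105 CPM (median 99.5) in *ChAT-BKO* libraries at ZT8 and 104 to 118 CPM (median 111) in *ChAT-BKO* libraries at ZT20. The groups touched, with 4 of 6 control and 5 of 6 *ChAT-BKO* libraries of ZT20 above all of their genotype at ZT8. Over both genotypes its log2 fold change was 0.16 (SE 0.04, 95% interval 0.08 to 0.23, adjusted p = 0.0161 from edgeR), and it was 0.16 in each genotype (adjusted p = 0.450 in controls and 0.283 in *ChAT-BKO* neurons).

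*Ncbp1* ranged from 38.8 to 41.7 CPM (median 41.1) in controls at ZT8 and from 43.0 to 48.4 CPM (median 44.97) in controls at ZT20, without overlap, which 0.938% of all genes also showed. In *ChAT-BKO* libraries it ranged from 36.7 to 45.2 CPM (median 43.7) at ZT8 and from 43.8 to 50.9 CPM (median 47.3) at ZT20, with overlap. Its log2 fold change was 0.15 in controls (adjusted p = 0.430), 0.16 in *ChAT-BKO* neurons (adjusted p = 0.445) and 0.15 over both (SE 0.04, interval 0.07 to 0.23, adjusted p = 0.0239 from edgeR).

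*Tbk1* ranged from 29.96 to 38.1 CPM (median 34.9) in controls at ZT8, 37.1 to 43.1 CPM (median 39.2) in controls at ZT20, 32.7 to 36.5 CPM (median 35.6) in *ChAT-BKO* libraries at ZT8 and 33.1 to 44.2 CPM (median 40.5) in *ChAT-BKO* libraries at ZT20. In each genotype 4 of 6 libraries of ZT20 lay above all of ZT8. Its log2 fold change was 0.19 in controls (adjusted p = 0.438), 0.18 in *ChAT-BKO* neurons (adjusted p = 0.403) and 0.18 over both (SE 0.05, interval 0.09 to 0.28, adjusted p = 0.0250 from edgeR). The last call was lost without control replicate 1 or 2 at ZT8, control replicate 3 at ZT20 or *ChAT-BKO* replicate 5 at ZT8, with adjusted p between 0.0507 and 0.0627, and without the 5 libraries rich in muscle markers (0.17, adjusted p = 0.0910), within a range of 0.00261 to 0.0910 over the alternatives. Its log2 fold change stayed between 0.16 and 0.20 in all of these fits.

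**Figure D5:**
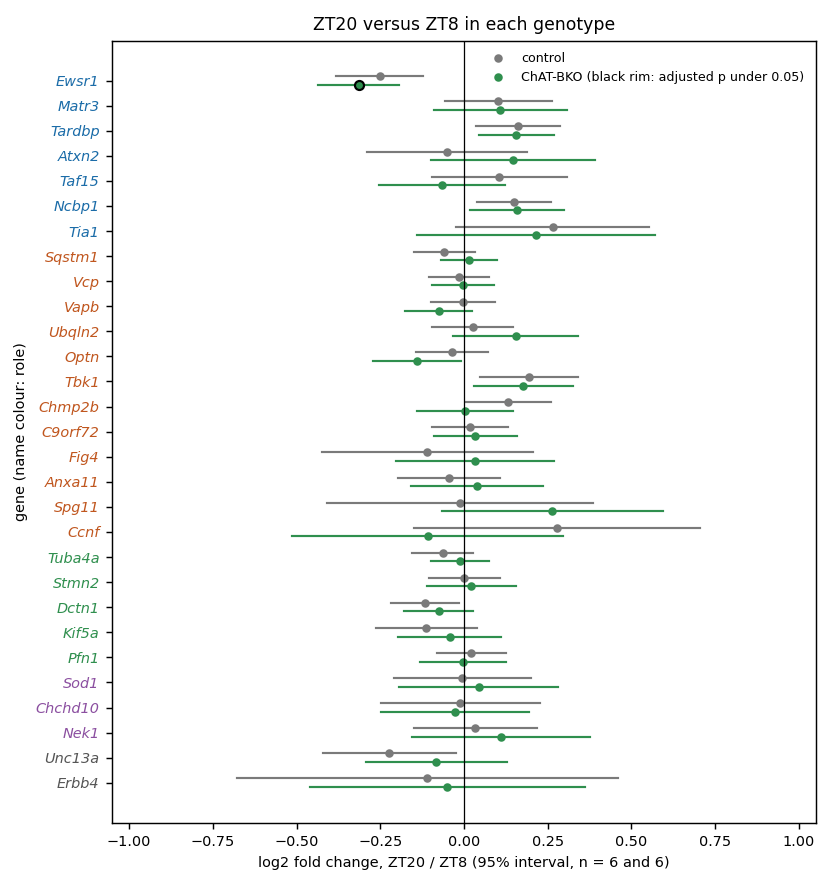
Log2 fold change of ZT20 over ZT8 with its 95% interval in controls and in *ChAT-BKO* neurons (n = 6 and 6 each) for 29 transcripts, grouped by role, without *Ang*, and with a black rim where the adjusted p was under 0.05. The rim falls on *Ewsr1* in *ChAT-BKO* neurons, and *Tardbp*, *Ncbp1* and *Tbk1* lie to the right of 0 in both genotypes.

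The other 26 members were not called between time points. Controls and *ChAT-BKO* neurons come from different mice, and 21 of 30 members had the same sign in both, or 70.0%, compared with 59.5% of all genes. All genes were not matched to the members in abundance, so the higher share is not a trait of the members. The 7 RNA-binding members had a median of 0.105 over both genotypes and 6 of them were above 0, with *Ewsr1* the exception. Within each genotype, 5 of the 7 were above 0. *Atxn2* (-0.05 in controls, 0.15 in *ChAT-BKO* neurons) and *Taf15* (0.11 and -0.07) changed sign between genotypes. The 12 autophagy members had a median of 0.01 and 6 on each side, and the roles were not compared by a test. Leaving out *Ang*, the member not called that differed most was *Tia1* at 0.24 (interval 0.02 to 0.46). *Dctn1* differed by -0.10 (interval -0.16 to -0.03, adjusted p = 0.118 from edgeR) and was called by DESeq2. With each library's length slope in the fit, the 4 members were still called and *Dctn1* (-0.10, adjusted p = 0.000426 from edgeR), *Unc13a* (-0.18, adjusted p = 0.000204) and *Kif5a* (-0.09, adjusted p = 0.00211) were called lower at ZT20, while the share of all genes called rose from 2.69% to 7.40%. Endothelial markers also moved with time of day. Their sum ranged from 7.34 to 13.8 CPM at ZT8 and from 11.0 to 21.3 CPM at ZT20, with 1 of 5 called and 5 of 5 higher at ZT20, and 1 of 6 astrocyte markers was called higher. Their part in the members' differences was not tested.

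The promoters of the 4 genes called by time of day are shown, as 80 bases before the outermost start annotated by RefSeq or GENCODE, to let the sequence be set beside the values. They come from RefSeq, build GRCm38.p6, and are written 5′ to 3′ on the strand of the gene, in lower case because none of the motifs searched lies in them.
*Ewsr1*, chr11:5099267-5099346, minus strand: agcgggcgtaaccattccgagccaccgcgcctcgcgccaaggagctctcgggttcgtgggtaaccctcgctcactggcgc
*Tardbp*, chr4:148627085-148627164, minus strand: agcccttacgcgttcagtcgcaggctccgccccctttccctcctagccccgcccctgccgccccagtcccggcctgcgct
*Ncbp1*, chr4:46138431-46138510, plus strand: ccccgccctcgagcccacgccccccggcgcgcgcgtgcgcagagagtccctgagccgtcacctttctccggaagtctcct
*Tbk1*, chr10:121586795-121586874, minus strand: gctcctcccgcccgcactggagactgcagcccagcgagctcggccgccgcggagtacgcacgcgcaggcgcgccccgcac

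Motifs were searched on both strands in windows from 250 bases before to 50 bases after each RefSeq start, which 25 of the 30 members had. The E-box CACGTG, bound by CLOCK and BMAL1, was found in 2 of 25 members, *Atxn2* and *Tbk1*, or 8% compared with 8.09% of all genes with such a window. The E′-box CACGTT was found in 2 of 25, *Atxn2* and *Unc13a*, compared with 5.44% of all genes. The D-box TTANGTAA and the ROR element TAGGTCA were found in 0 of 25 members, compared with 2.72% and 2.97% of all genes. In *Tbk1* the E-box is centred 8 bases after the start. The sites before a start are shown with 12 bases on either side and the motif in capitals, on the strand of the gene, so that an E′-box on the other strand reads AACGTG.
*Atxn2* E-box, chr5:121711445-121711474, plus strand, centred 149 bases before the start: cgccccgctcctCACGTGtccctgatcggc
*Atxn2* E′-box, chr5:121711477-121711506, plus strand, centred 117 bases before the start: cccgggccgtctCACGTTcgacttccgcct
*Unc13a* E′-box, chr8:71671928-71671957, minus strand, centred 185 bases before the start: agaggaaatagaAACGTGgagacctaggta
These matches describe the letters in the windows and do not show binding. None of *Atxn2*, *Tbk1* and *Unc13a* was called between *ChAT-BKO* and control neurons at either time point.

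A list of 100 partner genes, which act in the same complexes and pathways as the members, was examined in the same fits, and 99 were tested. Between *ChAT-BKO* and control neurons, 0 of the 99 were called at ZT8, at ZT20 or over both time points with edgeR, with median log2 fold changes of 0.00, -0.01 and 0.00. The smallest p-values belonged to *Kif5b*, a kinesin heavy chain related to *Kif5a*, at 0.13 at ZT8 (adjusted p = 0.956 from edgeR) and 0.12 over both time points (adjusted p = 0.399), and to *Immt*, a mitochondrial protein that partners *Chchd10*, at 0.11 at ZT8 (adjusted p = 0.995) and 0.08 over both (adjusted p = 0.434). At ZT20 they belonged to *Pfn2*, a profilin, at -0.14 (adjusted p = 0.511) and *Dctn6*, a dynactin subunit, at -0.17 (adjusted p = 0.734). For the difference of the effects, *Erbb3* at 0.54 and *Keap1* at -0.14 had the smallest p-values and neither was called (adjusted p = 1.00).

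Over both genotypes, 3 of the 99 partners were called between time points, 1 higher and 2 lower at ZT20, a share close to the 2.69% of all genes. *Sfpq*, a splicing factor of the paraspeckle, had means of 71.8 CPM at ZT8 and 90.2 CPM at ZT20 in controls, where it rose by 0.33 on the log2 scale (SE 0.05, edgeR adjusted p = 0.0127). In *ChAT-BKO* neurons its means were 72.6 and 85.9 CPM (0.25, edgeR adjusted p = 0.0695), and over both genotypes it rose by 0.29 (edgeR adjusted p = 7.41e-06). *Ap5b1*, a subunit of the adaptor complex that works with spatacsin, the product of *Spg11*, fell from 11.3 to 8.22 CPM in controls and from 10.6 to 7.75 CPM in *ChAT-BKO* neurons, by 0.46 over both on the log2 scale (adjusted p = 0.000562). *Dync1h1*, the dynein heavy chain that dynactin serves, fell from 1478 to 1339 CPM in controls and from 1504 to 1369 CPM in *ChAT-BKO* neurons, by 0.14 over both (SE 0.03, adjusted p = 0.0140).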

How the data were processed

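Ribosome-bound mRNA of 24 immunoprecipitates and 1 pooled input was sequenced from stranded poly(A) libraries. The authors deposited expected counts per gene, estimated with RSEM after alignment with STAR 2.7.5 (submitters' processing notes). RSEM divides reads among genes, and 6.11% of values were not whole. Counts were rounded. Genes whose counts in the immunoprecipitates added up to 10 or more were tested with the quasi-likelihood test of edgeR 4.0.16 in R 4.3.3, with TMM normalization and Benjamini-Hochberg adjustment over 21738 genes, and called at an adjusted p under 0.05. Comparisons within a time point or genotype used 12 libraries. Fits over both time points or genotypes were additive over 24, and the difference of effects was an interaction term. Alternatives used DESeq2 1.42.0, limma 3.58.1 (voom) and other filters, normalizations and samples. CPM of the immunoprecipitates used totals scaled by TMM. Deposited totals served for the ratios to the input, the level of 3 counts and the muscle marker sums set against 90 CPM. Log2 ratios to the input used a prior count of 2, and 86.9% of tested genes had a length from GENCODE M21. Gene symbols matched RefSeq GRCm38.p6 for 96.7% of the table and GENCODE M21 for 74.6%.

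Fold changes are given for members called and for the 3 members of smallest p in each comparison, with further values for members called in a pooled fit. Ends of ranges, the largest difference not called and members called under an alternative are given as well. The members, the partner and marker lists and the length slope were chosen with earlier results of these data known. Libraries came from separate mice, and counts of replicate pairs differed beyond sampling noise (chi-square per degree of freedom 1.8 to 25.4 over 60 pairs). The code was tested on simulated data.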

Additional observations from a re-analysis of the deposited data

Results flagged for a closer look

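In 6 of 120 groups of 6 libraries, 1 library lay far from the other 5, with a gap to its nearest neighbour that took up more of the group's range than Dixon's 95% critical value allows. Chance alone gives about 5% of groups. *Ncbp1* in controls at ZT8 was low in replicate 3, at 38.8 CPM against 40.9 CPM for the next. *Chmp2b* in *ChAT-BKO* neurons at ZT8 was high in replicate 2, at 36.5 CPM against 33.4 CPM. *Dctn1* in the same group was high in replicate 5, at 1060 CPM against 1000 CPM. The other 3 were *Ang*, which had few counts, at 0.734 CPM in *ChAT-BKO* replicate 5 at ZT8, 0 CPM in control replicate 3 at ZT20 and 0.762 CPM in *ChAT-BKO* replicate 6 at ZT20.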

How the results depend on the processing

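Of 593 values of the 22 named fold changes under alternatives, 578 kept their direction and side of the threshold, 15 crossed the threshold and 0 reversed. No member was called between *ChAT-BKO* and control neurons at ZT8 or ZT20, or for the difference of the effects, under the alternatives run, and over both time points the count moved from 0 to 1 with the length slope as a covariate. With that covariate the count was 3 for time of day in controls, 2 in *ChAT-BKO* neurons (*Ewsr1* and *Tardbp*) and 7 over both genotypes, while the shares of all genes called rose from 0.115% to 1.59%, from 0.285% to 2.3% and from 2.69% to 7.4%. The median SE of the members over both genotypes then fell from 0.0547 to 0.0314. For controls, DESeq2 gave 1 (*Ewsr1*, adjusted p = 0.0158), as did leaving out the 2 libraries of steepest slope, a choice made after seeing the data. Leaving out the 5 muscle-rich libraries, also chosen after seeing the data, gave 0 in *ChAT-BKO* neurons and 3 over both genotypes. DESeq2 gave 5 over both genotypes. The causes were not tested.

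Leaving out 1 library at a time (96 fits) gave 0 to 1 members for time of day in controls (1 without control ZT8 replicate 5), 0 to 1 in *ChAT-BKO* neurons (0 without ZT20 replicate 1 or 2 or ZT8 replicate 3 or 6), 3 to 4 over both genotypes and 17 above the input in each fit. A fit with the replicate number as a block called 0, 0, 0, 1, 0, 0 and 4 members in the 7 comparisons, the same counts as without it. Same-numbered libraries correlated between -0.0795 and 0.159, with at most 1 of 6 pairs over 0.1, so the numbers were not taken as a pairing. Over all genes the block raised the calls for time of day in controls from 25 to 86, at ZT8 from 40 to 69 and at ZT20 from 50 to 61. It lowered them for time of day in *ChAT-BKO* neurons from 62 to 47, for deletion over both time points from 161 to 146 and for time over both genotypes from 585 to 524. Depth limits *Ang*, *Erbb4*, *Ccnf*, *Spg11* and *Tia1* most, and filterByExpr left 29 members.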
